A study of Bos taurus with 14 samples.

Results

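IRF1, IFNAR2 and STAT5A are 3 genes of interferon and JAK-STAT signalling, taken from the 24616 genes counted in bovine endometrial explants. They were selected on lower values with sPIF in these same explants, since each is in the study's list of genes changed by the peptide. Their identifiers are ENSBTAG00000031231 (IRF1), ENSBTAG00000015212 (IFNAR2) and ENSBTAG00000009496 (STAT5A). All 3 were among the 13233 genes with 10 or more counts in each of the 14 libraries, and these genes were tested. The embryo releases a small peptide, preimplantation factor (PIF), of which sPIF is the synthetic copy. The question behind the comparison was whether sPIF alters gene expression in the endometrium that would receive the embryo.

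Type I interferons bind a receptor built from the chains IFNAR1 and IFNAR2, which carry JAK kinases on their inner side. The kinases activate STAT proteins, transcription factors that enter the nucleus and switch on interferon-stimulated genes, among them IRF1. In ruminants the elongating conceptus secretes interferon tau, which acts on the endometrium through this receptor and is the signal for maternal recognition of pregnancy. IRF1 encodes interferon regulatory factor 1, a transcription factor induced by interferons and by NF-kappa B. STAT5A encodes a STAT protein that takes part in signalling by prolactin and several cytokines.

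Endometrium from between the caruncles was taken from 7 heifers after slaughter, with ovaries staged by their morphology as follicular (a regressing corpus luteum); the animals are called cows 1 to 7 here. Of the explants cultured from each cow, 1 in RPMI medium (Control) and 1 in this medium with 100 nM sPIF were sequenced. Culture lasted 24 h and, after a change of medium, a further 6 h. Per the study's methods, the Control wells also received the DMSO in which sPIF was dissolved. Lane 1 of the flow cell held cows 1 to 4 and lane 2 held cows 5 to 7, whose libraries were sequenced 2 times. Cows 2 to 5 had high and cows 1, 6 and 7 had low serum progesterone, above or below 1 ng/mL, so the stage by morphology and the hormone level did not match in all cows. From each cow only 1 explant per treatment was sequenced. The effect of sPIF and a difference between 2 pieces of tissue from the same uterus therefore cannot be told apart within a cow. An explant is a mixture of epithelium, stroma, vessels and leukocytes, and fewer cells of a type and less RNA per cell cannot be told apart in such bulk samples. The identifiers of the 41 marker genes listed for these cell types and for the uterus were not known, so the tissue label was not checked against them.

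Libraries held between 15885642 and 25771250 counts in the Control group and between 16377453 and 28625724 counts in the sPIF group. Levels are given as CPM, the count of a gene scaled to a common library size with TMM factors. They are compared within a gene only, since they do not account for transcript length.

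IRF1, the transcription factor, had the largest difference of the 3 genes and the widest range between cows. In the Control explants its level had a lowest value of 154, a median of 400.4 and a highest value of 624 CPM over the 7 cows. In the sPIF explants these values were 112, 194 and 365 CPM. Each sPIF explant lay below the Control explant of its own cow, while the groups as a whole overlapped, with 1 of 7 sPIF explants below the lowest Control explant. The means were 385 ± 190.4 CPM (SD, n = 7) in Control and 211 ± 80.1 CPM (SD, n = 7) in sPIF explants. The log2 fold change was -0.77 (standard error 0.16), and the sPIF level was 58.7% of the Control level as a geometric mean over the cows.

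The size of the difference in IRF1 was uneven between cows. In cow 6 it went from 602 to 194 CPM, in cow 5 from 454 to 232 CPM and in cow 7 from 624 to 365 CPM. In cow 4 it went from 400.4 to 236 CPM, in cow 3 from 288 to 172 CPM and in cow 2 from 154 to 112 CPM. In cow 1 the explants held 171 and 166 CPM. The log2 difference was therefore -1.64 in cow 6, between -0.97 and -0.45 in cows 2, 3, 4, 5 and 7, and -0.044 in cow 1. The 95% interval from counting error (exact binomial), which leaves out the variation between explants, was -0.12 to 0.028 in cow 1 and lay below 0 in the other 6 cows.

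IFNAR2, the receptor chain, differed least between cows. In the Control explants the lowest level was 140.1, the median 159 and the highest 194 CPM. In the sPIF explants they were 99.9, 126 and 156 CPM, and 5 of 7 sPIF explants lay below the lowest Control explant. Only the sPIF explants of cows 1 and 4 reached into the Control range. The means were 164 ± 21.1 CPM (SD, n = 7) and 125 ± 21.6 CPM (SD, n = 7). The log2 fold change was -0.40 with a standard error of 0.091, and the sPIF level was 75.8% of Control (geometric mean over cows).

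The differences of IFNAR2 did not follow the order of the cows seen for IRF1. The largest was in cow 3, from 159 to 99.9 CPM (log2 difference -0.67), followed by cow 6 (-0.61), cow 7 (-0.52) and cow 2 (-0.50). Cow 4 went from 193 to 156 CPM (-0.31), cow 5 from 140.1 to 126 CPM (-0.15) and cow 1 from 148 to 143 CPM (-0.044). The counting interval held 0 in cow 1, at -0.12 to 0.034, and lay below 0 in 6 of 7 cows.

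STAT5A, a transcription factor of prolactin signalling, had the lowest counts of the 3 genes, between 452 and 1559 per library, against 1879 to 10839 for IRF1 and 1918 to 4315 for IFNAR2. Its Control level had a lowest value of 30.1, a median of 52.7 and a highest value of 86.6 CPM. In the sPIF explants these were 27.0, 40.7 and 63.2 CPM, and 2 of 7 sPIF explants lay below the lowest Control explant. The groups overlapped over most of their range, because cows differed more than the explants of a cow did. The means were 56.7 ± 20.02 CPM (SD, n = 7) and 41.5 ± 13.3 CPM (SD, n = 7). The log2 fold change was -0.43 (standard error 0.096), and the sPIF level was 74.2% of Control (geometric mean over cows).

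Cow 6 had the largest difference in STAT5A, from 86.6 to 52.6 CPM (log2 difference -0.72). Cows 3, 5, 2 and 4 followed with -0.63, -0.60, -0.49 and -0.37, and cow 7 with -0.18. Cow 1 held 30.1 and 29.7 CPM (-0.020), with a counting interval of -0.19 to 0.15, while the interval lay below 0 in the other 6 cows. Reads of STAT5A and its close paralogue STAT5B, its neighbour on chromosome 19 in the RefSeq annotation, could have been divided between the genes in counting.

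**Figure D1:**
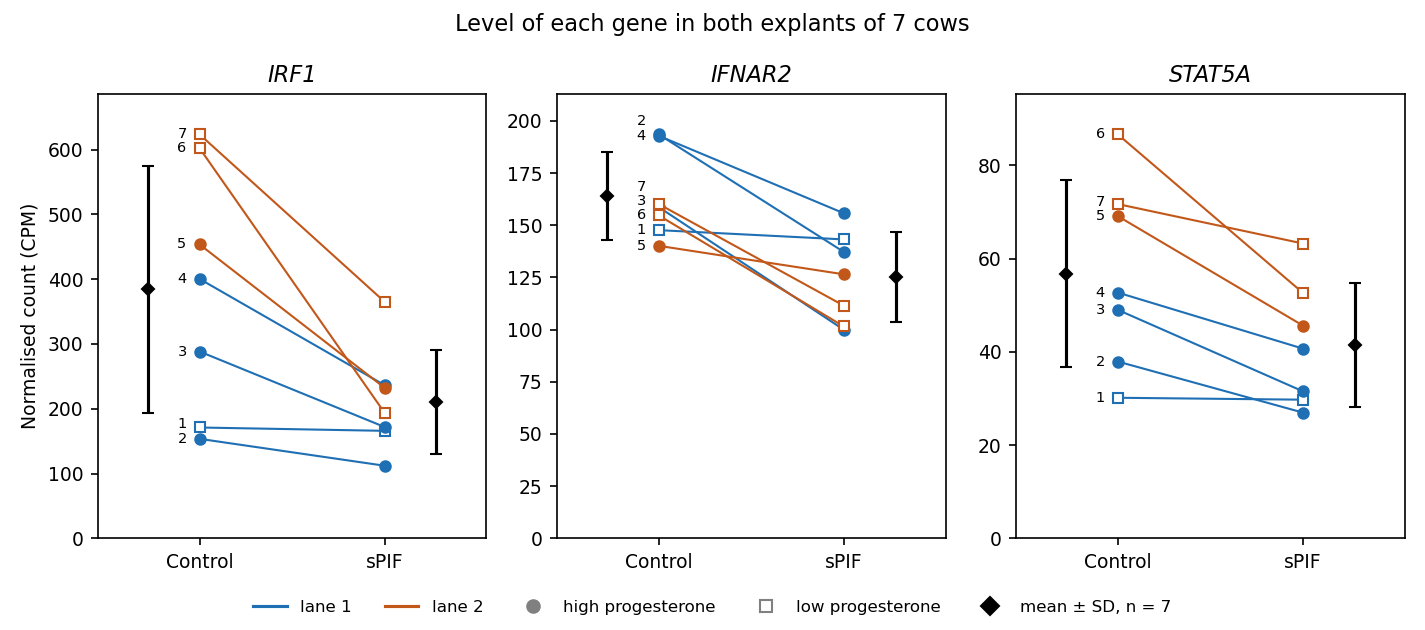
Level of IRF1, IFNAR2 and STAT5A in CPM (vertical axis, from 0) in the Control and sPIF explants of 7 cows, each line joining the explants of the cow numbered at its left. Diamonds and bars are the mean ± SD of 7 explants. Every line goes down, although those of cow 1 are nearly level, and in the IRF1 and STAT5A panels the Control explants of lane 2 lie above all those of lane 1.

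Each of the 3 genes was thus lower in 7 of 7 cows. Of all 13233 genes, 212 were (1.6%), and this count gives no support of its own because lower values with sPIF chose the members. The log2 fold changes stood at the 0.385th (IRF1), 3.27th (IFNAR2) and 2.69th (STAT5A) percentile of all genes, whose median was 0.0013. With the quasi-likelihood test of edgeR, cow as blocking factor and p adjusted by Benjamini-Hochberg, 0 genes (0%) were lower at an adjusted p below 0.1, and 1061 genes in either direction had an unadjusted p under 0.05. DESeq2's Wald test called 78 lower genes on the same counts (0.589%), and limma-voom called 0 in either direction.

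The members were selected by the study's own adjusted p. In the DESeq2 fit made here, it was 0.00606 for IRF1, 0.0386 for STAT5A and 0.0461 for IFNAR2. By edgeR's quasi-likelihood test the adjusted p was 0.525 for each of the 3 genes. In the DESeq2 fit, the genes nearest to the threshold of 0.1 had 0.0998 inside it and 0.101 outside it. These values come from the contrast that chose the genes, so they are a description and not a test, and they need not equal those behind the list: the gene at 0.101 is in the study's list.

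IRF1 had a lower log2 difference than STAT5A in 6 of 7 cows, cow 2 being the exception. It was lower than that of IFNAR2 by more than 0.05 in 5 of 7 cows. In cow 1 both were -0.044, and in cow 2 the difference of IFNAR2 was the lower one. IFNAR2 had a lower difference than STAT5A in 4 of 7 cows, so neither of these genes was lower than the other throughout.

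Within each cow, the difference of IRF1 was set against the differences of all genes tested. It stood at the 0.710th percentile in cow 6, the 1.47th in cow 7, the 2.06th in cow 4 and the 3.49th in cow 5. It was at the 8.61st percentile in cow 2 and the 9.70th in cow 3. In cows 2 to 7, IFNAR2 stood between the 4.39th (cow 7) and the 36.1st percentile (cow 5). STAT5A stood between the 6.45th (cow 6) and the 24.2nd percentile (cow 7) in the same cows. Lower values with sPIF chose the members, so these positions are a description only. In cow 1 the 3 genes lay near the middle, at the 43.1st percentile for IRF1 and IFNAR2 and the 46.9th for STAT5A. The explants of cow 1 also differed least over all genes, with an SD over genes of the log2 differences of 0.347, although cow 7 (0.347) and cow 4 (0.357) came close to it. Cow 3 had the widest differences over genes, with an SD of 0.759 against at most 0.510 elsewhere. Without cow 3 the log2 fold changes were -0.77 (IRF1), -0.35 (IFNAR2) and -0.40 (STAT5A).

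Sequencing depth also differed between the explants of a cow. The sPIF library was the shallower one in cows 2 and 3, where IRF1 differed by -0.45 and -0.75, and the deeper one in the other 5 cows, with differences from -1.64 to -0.044. The spread of the differences over cows was 16.0 times the counting error for IRF1, 6.10 times for IFNAR2 and 3.65 times for STAT5A. What depth adds to the differences was not tested.

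**Figure D2:**
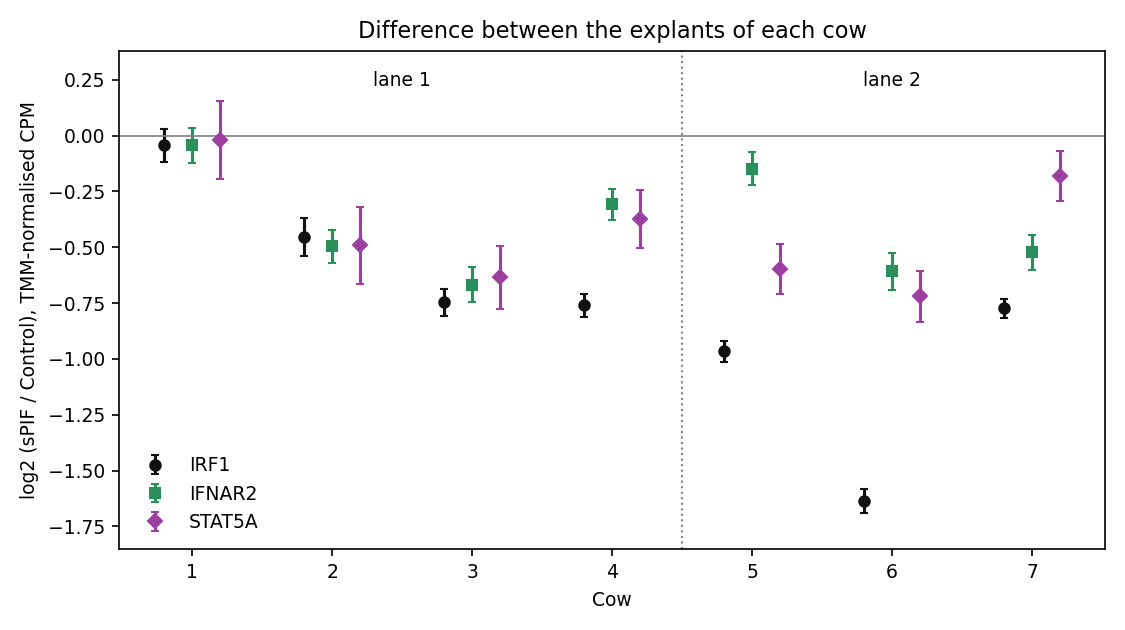
Log2 ratio of the sPIF to the Control explant (vertical axis) for each gene in each cow (horizontal axis), with bars for the 95% interval from counting error and a dotted line between lanes. The intervals of cow 1 hold 0, and IRF1 in cow 6 is the lowest at -1.64.

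Differences between cows took up different shares of the variation in the 3 genes. On log2 CPM over the 14 libraries, cow accounted for 64.3% of the sum of squares of IRF1, 35.7% of IFNAR2 and 76.8% of STAT5A, with a median of 75.6% over all genes. Treatment accounted for 26.6%, 49.3% and 17.8%, against a median of 2.32%, a share that the choice of the genes raised. The SD between the cow means on the log2 scale was 0.64 for IRF1, 0.48 for STAT5A and 0.18 for IFNAR2, against a median of 0.33 over all genes. IRF1 thus varied between cows more than most genes (87.4th percentile) and IFNAR2 less than most (14.7th percentile). Among Control explants alone, the highest level was 4.06 times the lowest for IRF1, 2.87 times for STAT5A and 1.38 times for IFNAR2.

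IRF1 and STAT5A, the pair of transcription factors, had higher levels in lane 2, in the Control explants without overlap between lanes. In the Control explants IRF1 was at 171, 154, 288 and 400.4 CPM in cows 1 to 4 and at 454, 602 and 624 CPM in cows 5 to 7. These ranges did not overlap, whereas those of the sPIF explants did, with 112 to 236 CPM in lane 1 and 194 to 365 CPM in lane 2. Counts summed over both explants of a cow gave a log2 difference, lane 2 minus lane 1, of 0.88 (standard error 0.28), and edgeR gave an adjusted p of 0.0460. STAT5A was at 30.1, 37.9, 49.0 and 52.7 CPM in the Control explants of lane 1 and at 69.1, 86.6 and 71.7 CPM in those of lane 2. Unlike those of IRF1, its sPIF explants did not overlap between lanes either, with 27.0 to 40.7 CPM in lane 1 and 45.6 to 63.2 CPM in lane 2. Its difference was 0.74 (standard error 0.17), and edgeR gave an adjusted p of 0.0153.

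IFNAR2 went the other way, with Control means of 173 ± 23.5 CPM (SD, n = 4) in lane 1 and 152 ± 10.3 CPM (SD, n = 3) in lane 2. The ranges overlapped, and the difference of -0.26 (standard error 0.11) had an adjusted p of 0.120 by edgeR. Of all genes 5236 were called between lanes (39.6%), so that 2 called members of 3 do not stand apart from the rest. The call of IRF1 was lost without cow 1, 6 or 7 (adjusted p = 0.102, 0.101 and 0.123 by edgeR), in the sPIF explants alone (0.136) and with progesterone group as a term (0.110). Over all 13 alternatives its adjusted p in edgeR or DESeq2 was 0.00932 to 0.136. IFNAR2 was called in 1 of them, without cow 3 (edgeR adjusted p = 0.0594, range 0.0594 to 0.356), and STAT5A in 13 of 13. Each cow was in 1 lane, so lane and the cows in it cannot be told apart.

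Set in order of their means, the groups formed by lane and treatment ranked alike for IRF1 and STAT5A and differently for IFNAR2. For IRF1 the sPIF explants of lane 1 were lowest at 172 ± 50.9 CPM (SD, n = 4), followed by the Control explants of lane 1 at 253 ± 115 CPM (SD, n = 4) and the sPIF explants of lane 2 at 264 ± 89.9 CPM (SD, n = 3). The Control explants of lane 2 were highest at 560 ± 92.5 CPM (SD, n = 3) and overlapped with none of these, whereas each of the lower neighbours overlapped. For STAT5A the sPIF explants of lane 2, at 53.8 ± 8.86 CPM (SD, n = 3), overlapped with the Control explants of lane 1, at 42.4 ± 10.3 CPM (SD, n = 4). The lowest STAT5A group was sPIF in lane 1, at 32.2 ± 5.94 CPM (SD, n = 4), and the highest was Control in lane 2, at 75.8 ± 9.46 CPM (SD, n = 3). For IFNAR2 treatment came before lane, with 113 ± 12.6 CPM (SD, n = 3) and 134 ± 24.0 CPM (SD, n = 4) in the sPIF explants of lanes 2 and 1, both below the Control means.

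The difference with sPIF was compared between lanes by an interaction term. The log2 difference of IRF1 was -0.50 ± 0.34 (SD, n = 4) in lane 1 and -1.12 ± 0.45 (SD, n = 3) in lane 2. The interaction was -0.62 (standard error 0.25), with an unadjusted p of 0.0371 and an adjusted p of 0.418 from edgeR, so it did not pass. Its adjusted p in edgeR or DESeq2 lay between 0.268 and 0.783 in the 10 alternatives, and its value was -0.37 without cow 6. For IFNAR2 the differences were -0.38 ± 0.27 (SD, n = 4) and -0.43 ± 0.24 (SD, n = 3), and for STAT5A -0.38 ± 0.26 (SD, n = 4) and -0.50 ± 0.28 (SD, n = 3). These interactions were -0.047 and -0.12, each with a standard error of 0.19, and edgeR gave adjusted p of 0.941 and 0.837. Both changed sign without cow 1, to 0.068 and 0.0044, and that of IFNAR2 also without cow 6, to 0.044. With 1 cow left out they ranged from -0.19 to 0.068 and from -0.28 to 0.0044. By edgeR 0 genes (0%) were called for the interaction with lane, with 1516 genes at an unadjusted p under 0.05, and DESeq2 called 175, none of the 3 members among them (adjusted p from 0.320 to 0.961).

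Progesterone group did not separate the levels of the 3 genes. Control means of IRF1 were 324 ± 133 CPM (SD, n = 4) in the high and 466 ± 255 CPM (SD, n = 3) in the low group, and those of STAT5A were 52.2 ± 12.9 and 62.8 ± 29.3 CPM (SD, n = 4 and 3). For IFNAR2 they were 171 ± 26.4 and 154 ± 6.27 CPM (SD, n = 4 and 3). The ranges of the groups overlapped for all 3 genes. The low group spanned both lanes, with cow 1 in lane 1 and cows 6 and 7 in lane 2, and for IRF1 and STAT5A the low value in this group was that of cow 1.

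On the summed counts, high minus low was -0.45 (standard error 0.39) for IRF1, 0.18 (standard error 0.16) for IFNAR2 and -0.32 (standard error 0.30) for STAT5A, each with an adjusted p of 0.852 by edgeR. With lane as a term the values of IRF1 and STAT5A changed sign, to 0.029 and 0.088. With 1 cow left out the values ranged from -0.77 (without cow 1) to -0.17 (without cow 7) for IRF1, from 0.12 (without cow 4) to 0.25 (without cow 5) for IFNAR2 and from -0.61 (without cow 1) to -0.13 (without cow 6) for STAT5A. By edgeR 0 genes (0%) were called between the progesterone groups, with 458 at an unadjusted p under 0.05, and DESeq2 called 24.

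The difference with sPIF was also compared between these groups. For STAT5A it was -0.52 ± 0.12 (SD, n = 4) in the high and -0.31 ± 0.37 (SD, n = 3) in the low group. For IRF1 it was -0.73 ± 0.21 (SD, n = 4) and -0.82 ± 0.80 (SD, n = 3), and for IFNAR2 -0.40 ± 0.23 (SD, n = 4) and -0.39 ± 0.30 (SD, n = 3). The low group held both the smallest difference of IRF1 and STAT5A, in cow 1, and the largest, in cow 6. The interactions were -0.22 (standard error 0.19) for STAT5A, 0.085 (standard error 0.34) for IRF1 and -0.013 (standard error 0.20) for IFNAR2, each with an adjusted p of 1.00 by edgeR. That of IRF1 changed sign without cow 2 (-0.0069) or cow 6 (-0.32), and that of IFNAR2 without cow 1 (0.15), cow 2 (0.018) or cow 3 (0.074). That of STAT5A was -0.086 without cow 1 and -0.42 without cow 6. For this interaction edgeR called 0 genes (0%), with 187 at an unadjusted p under 0.05, and DESeq2 called 0.

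Whether the cows with the lower difference in 1 gene also had it in another was examined over the 7 cows. The log2 differences of IRF1 and STAT5A had a Pearson r of 0.75 (exact two-sided permutation p = 0.0482, and 0.145 adjusted over 3 pairs) and a Spearman rho of 0.57 (exact permutation p = 0.2, and 0.3 adjusted). The relation rested on cows 1 and 6, the 2 farthest from the median in IRF1, without which r was 0.096 over 5 cows, in a narrower range of values. With a single cow left out r was 0.53 without cow 1, 0.67 without cow 6, 0.82 without cow 2 and at most 0.83. With the mean of each lane subtracted r was 0.82 (exact permutation within lanes, p = 0.0694, and 0.208 adjusted), and the 4 and 3 cows of single lanes were not correlated on their own.

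IFNAR2 and STAT5A had an r of 0.55 (exact permutation p = 0.203, and 0.255 adjusted) and a rho of 0.64 (exact permutation p = 0.139, and 0.3 adjusted). Without cows 1 and 5 their r was 0.56, and with the lane means subtracted it was 0.54. Single cows moved it, to 0.15 without cow 1 and to 0.81 without cow 5. IRF1 and IFNAR2 had an r of 0.51 (exact permutation p = 0.255, and 0.255 adjusted) and a rho of 0.32 (exact permutation p = 0.498, and 0.498 adjusted). Without cows 1 and 6 their r was -0.54, so the relation rested on those cows, and without cow 1 alone it was 0.14. With the lane means subtracted it was 0.61. None of the pairs had an adjusted p below 0.1 over all 7 cows, with or without the lane means subtracted. IRF1 and STAT5A did without cow 2 (exact permutation, 0.0833 adjusted, with a range of 0.0833 to 0.789 with 1 cow left out). Both genes of a pair share the libraries and their scaling factors.

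Genes with a similar pattern of levels were sought over the 14 libraries, with the mean of each lane subtracted from log2 CPM. The 85 genes compared with each member are those with a known symbol, all of them from the list of genes chosen for a change with sPIF. What that choice adds to the likeness was not tested. Nearest to IRF1 were NR1D1 (r = 0.92), a circadian repressor, NFKBIE (0.91), an inhibitor of NF-kappa B, and TRAF2 (0.91), an adaptor of TNF receptors. RASSF1 (0.91) and STAT5A (0.91) came next.

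Nearest to STAT5A were TSPAN5 (r = 0.93), a tetraspanin, HYOU1 (0.91), a chaperone of the endoplasmic reticulum, and IRF1 (0.91), followed by EMP3 (0.90) and FRMD6 (0.88). Among all 13232 other genes tested TSPAN5 was at rank 1 for STAT5A, whereas NR1D1 was at rank 5 for IRF1 and FMOD at rank 13 for IFNAR2, so that genes with no known symbol were nearer to these. IFNAR2 had lower values and shared none of these neighbours. Its nearest were FMOD (r = 0.83), a proteoglycan of the extracellular matrix, RHOF (0.82), VCAM1 (0.79), an adhesion molecule for leukocytes, FSTL3 (0.78) and CYSLTR2 (0.78). Its r with IRF1 was 0.61 and with STAT5A 0.64. Without the subtraction of lane means the likeness of IFNAR2 was lower, with r of 0.23 to IRF1, 0.092 to STAT5A, 0.32 to RHOF and 0.42 to FSTL3 and CYSLTR2, while FMOD (0.83) and VCAM1 (0.71) changed less. The log2 differences between the explants of a cow ordered the genes otherwise, with r over 7 cows of 0.89 (HYOU1), 0.89 (FRMD6), 0.75 (IRF1), 0.73 (TSPAN5) and 0.61 (EMP3) to STAT5A. To IRF1 it was 0.84 (NFKBIE), 0.79 (RASSF1), 0.73 (NR1D1) and 0.64 (TRAF2), and to IFNAR2 0.71 (FSTL3), 0.68 (FMOD), 0.63 (VCAM1), 0.60 (CYSLTR2) and 0.41 (RHOF).

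Of the genes known to work with the 3 members, few could be named here, since the counts are listed by Ensembl identifier and only genes chosen for a change with sPIF had a known symbol. The other interferon receptor chains, the JAK kinases, the other STAT and IRF factors, the inhibitors of the pathway, the interferon-stimulated genes and the receptors and targets of STAT5 were not analysed here. Of 20 targets of IRF1, 1 was matched, VCAM1. It was at 113 ± 42.2 CPM (SD, n = 7) in Control and 48.0 ± 20.2 CPM (SD, n = 7) in sPIF explants, and lower in 6 of 7 cows. Its log2 difference was 0.38 in cow 1, -1.50 in cow 2, -2.05 in cow 3, -0.52 in cow 4, -1.76 in cow 5, -2.38 in cow 6 and -0.51 in cow 7. The highest and lowest values were in the same cows as for IRF1, whereas cows 2 and 3 were below cows 4 and 7 for VCAM1 and not for IRF1. Its adjusted p was 0.525 by edgeR, where it was not called, and 0.0130 by DESeq2, where it was. Of all 13233 genes tested, 1049 were lower in 6 of 7 cows and 212 in 7 of 7. Among them 0% (edgeR) and 0.589% (DESeq2) were called lower. VCAM1 is itself in the list chosen for a change with sPIF, so its values give no support of their own.

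A list of 6 genes was taken from those that the study sets beside a member in a pathway. CXCL3 and HIST1H2AC, which are set there too, were not in it. The genes were picked on these explants, so their direction is not independent evidence. NFKB1, a subunit of NF-kappa B, NFKBIE, the kinase MAPK11, TNFAIP3, which restrains NF-kappa B signalling, TRAF2 and the receptor CD40 were each lower in 7 of 7 cows, and 0 of 6 were called by edgeR (adjusted p = 0.525 for each) and 6 by DESeq2. Of all genes tested 1.6% were lower in 7 of 7 cows, and 0% (edgeR) and 0.589% (DESeq2) were called lower, so the counts reflect how the genes were picked. Their log2 fold changes were between -0.65 (MAPK11) and -0.38 (TRAF2), with a median of -0.51, against 0.0013 over all genes tested. Cow 1, in which the members hardly differed, had a difference of -0.91 for MAPK11, between -0.27 and -0.15 for TRAF2, CD40, NFKBIE and NFKB1, and -0.059 for TNFAIP3.

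In the RefSeq annotation, IFNAR2 lies beside the receptor genes IL10RB and IFNAR1 on chromosome 1, and IRF1 beside IL5 and SLC22A5 on chromosome 7. The gene model of RAD50 overlaps IRF1 there. The library kit did not mark the strand of a transcript, so reads from a stretch shared in the counting annotation could have gone unassigned. Whether RAD50 and IRF1 overlap in the annotation used for counting was not examined. The RefSeq annotation is of the ARS-UCD2.0 assembly and the counts are of UMD3.1, so it is used for names and neighbours only.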

How the data were processed

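TruSeq v2 libraries of 14 explants were sequenced in paired-end mode. Read trimming (Trimmomatic 0.36.0), mapping to UMD3.1 with Ensembl 89 genes (Bowtie2 2.2.6) and counting (featureCounts 1.4.6) were done by the authors, whose deposited values are raw counts. For cows 5 to 7 they added the counts of 2 runs. A last row of column totals was left out. Treatment and cow come from the labels, lane and progesterone group from the study's text.

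The 13233 genes with 10 or more counts in each library were normalised by TMM and tested in edgeR 4.0.16 (R 4.3.3), with a quasi-likelihood test and cow as block. An adjusted p below 0.1 over these genes was called. Lane and progesterone group were tested on counts summed per cow. Differences within a cow used log2 CPM with a prior count of 2, and counting intervals the exact binomial distribution. The alternatives were DESeq2 1.42.0, limma 3.58.1 (voom), other normalizations and filters, no block, single lanes and each cow left out.

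Across genes, both explants of a cow deviated from their group means together, with a correlation of 0.412 to 0.764 (median 0.667) in the 7 cows. Between different cows it was -0.559 to 0.543 (median -0.121), so the ranges overlapped.

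The members and gene lists were chosen with earlier results of these data known. Named genes are the members, 6 genes set beside them in a pathway by the study, up to 4 changed and the 2 most abundant genes of each list, and the 5 genes with a symbol most like each member in their levels. Symbols came from the study's supplementary gene list, which pairs 89 of 102 identifiers with a symbol, 22 of these after an extra 0 was removed from the identifier. The RefSeq table matched 0 identifiers.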

Additional observations from a re-analysis of the deposited data

How the results depend on the processing

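The log2 fold changes of IRF1, IFNAR2 and STAT5A were negative in all 48 values from the alternatives. Lower values with sPIF in these explants chose the genes, so this count gives no support of its own. With each cow left out in turn the log2 fold changes ranged from -0.89 to -0.63, -0.46 to -0.35 and -0.50 to -0.38. For IRF1 lane 1 alone gave -0.50 and lane 2 alone -1.11. Without the block for cow, the values were -0.87, -0.39 and -0.45, and edgeR called 0 genes, as with the pairing. DESeq2 was not run without the block.

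DESeq2 called 100 genes for sPIF and 6 of the pathway partners, 24 genes between progesterone groups and 175 for the interaction with lane, where edgeR called 0 in each; the cause was not tested. Leaving out 1 cow moved the lane difference of IRF1 between 0.71 and 1.10 and that of IFNAR2 between -0.32 and -0.21. The lane difference of IRF1 was 0.62 in the sPIF explants alone and 0.89 with progesterone group as a term, both added after seeing the data, and neither was called. With lane as a term the progesterone differences of IRF1 and STAT5A were 0.029 and 0.088, which reversed them.

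Leaving out 1 cow moved the lane interaction of IFNAR2 between -0.19 and 0.068 and that of STAT5A between -0.28 and 0.0044. It moved the progesterone interaction of IRF1 between -0.32 and 0.46 and that of IFNAR2 between -0.12 and 0.15, so the direction of these 4 values depends on single cows. The correlation of IRF1 with STAT5A was 0.53 to 0.83 with 1 cow left out, and 0.82 with lane means subtracted. Its adjusted exact permutation p was 0.0833 without cow 2, and 0.0833 to 0.789 over the fits with 1 cow left out. The correlation of IRF1 with IFNAR2 was -0.54 without cows 1 and 6. The search for promoter motifs was not run, as no promoter sequences were at hand. The 3 genes had at least 452 counts in each library.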

Other observations

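The genes listed beside the members also differed between lanes to an uneven degree. On counts summed per cow, lane 2 minus lane 1 was 0.83 on the log2 scale for TRAF2, 0.81 for MAPK11 and 0.76 for NFKBIE, with adjusted p of 0.00460, 0.0529 and 0.0632 by edgeR's quasi-likelihood test, so these 3 of 6 were called at 0.1, beside 39.6% of all genes. CD40 (0.43), NFKB1 (0.38) and TNFAIP3 (0.32) had adjusted p of 0.249, 0.215 and 0.374 by the same edgeR test. VCAM1 was level between lanes at -0.0026 (adjusted p = 0.996 by edgeR). Of the 3 members, IRF1 and STAT5A had lane differences of the size seen in the first 3 genes, and IFNAR2 did not.

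Among 27 sets of levels and differences of the members, taken over all cows, within lane 1 and within the high progesterone group, 0 held a cow farther from the others than the 95% limit of Dixon's gap test, where chance gives about 1 in 20.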
